A study of Mus musculus with 21 samples.

Results

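Stigmasterol is a plant sterol, and the comparison described here asks whether its effect on the testis transcriptome differs between mice that lack FXRα and wild-type mice. The value taken for each gene is the difference of 2 differences, stigmasterol against vehicle in FXRα knockout (KO) testes minus stigmasterol against vehicle in wild-type (WT) testes, and it is called the interaction below. A positive interaction means that the log2 fold change under stigmasterol was higher in KO than in WT. The contrast rests on 14 of the 21 libraries of the series: 3 KO stigmasterol, 3 KO vehicle, 4 WT stigmasterol and 4 WT vehicle animals. Each library is the testis RNA of 1 mouse at postnatal day 10, on a mixed background labelled 50% 129sv and 50% C57Bl6. KO animals are labelled FXRα-/-, with no tissue restriction named, and the sources used here do not give dose, route, vehicle or litter. Values per animal keep 1 order throughout, which is T10, T15, T93 (KO stigmasterol), T1, T90, T110 (KO vehicle), T78, T98, T118, T119 (WT stigmasterol), then T66, T71, T79, T81 (WT vehicle). The other 7 libraries, from animals given bisphenol A, are not part of the contrast. They entered the filter on low counts, the scaling and the estimate of the spread between animals.

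FXRα, encoded by Nr1h4, is a nuclear receptor that binds bile acids and, in liver and intestine, controls bile acid synthesis and transport through targets such as the repressor SHP (Nr0b2). Stigmasterol has been described as an antagonist of this receptor in cultured cells, and plant sterols are pumped out of enterocytes and hepatocytes by the transporter pair ABCG5 and ABCG8. The testis is immature at this age: its tubules contain Sertoli cells with spermatogonia and germ cells at the start of meiosis, and Leydig cells and macrophages lie between them. Ribosomal proteins, which carry most of the results below, are the proteins that assemble with ribosomal RNA into the small (40S) and large (60S) subunits. Their messages begin with a terminal oligopyrimidine (TOP) tract and are known to be regulated together.

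Counted reads per library ranged from 35459523 to 61498855, and 20254 of 32643 genes had enough reads to be tested. Levels are in CPM, the reads of a gene relative to all counted reads of its library after TMM scaling, and a count of 3, taken as the floor of detection, equals 0.0488 to 0.0846 CPM. Nr1h4, the targeted gene, was at 0.318, 0.331 and 0.308 CPM in KO stigmasterol animals and at 0.221, 0.29 and 0.279 CPM in KO vehicle animals. It was at 0.547, 0.303, 0.582 and 0.56 CPM in WT stigmasterol animals and at 0.351, 0.626, 0.536 and 0.639 CPM in WT vehicle animals. The KO and WT values overlapped under stigmasterol, where the log2 difference was -0.64 ± 0.394 (SE, edgeR adjusted p = 0.383), and did not overlap under vehicle (-1.02 ± 0.403, edgeR adjusted p = 0.16). The counts cover the whole gene and the sources used here do not name the deleted part, so this gene checks the labels only weakly. For the tissue label, all 26 Sertoli cell genes listed were measured, and their summed level was 8199 to 9304 CPM in KO stigmasterol, 9200 to 9599 CPM in KO vehicle, 9808 to 12912 CPM in WT stigmasterol and 9162 to 14356 CPM in WT vehicle animals. Markers of the epididymis were uneven: Cdh16, an epithelial cadherin of the epididymis and kidney, was at 10 CPM or more in KO stigmasterol animals T10 (86 CPM) and T93 (203 CPM), KO vehicle animals T1 (39.9 CPM) and T110 (22.6 CPM) and WT vehicle animal T81 (17.6 CPM).

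Few genes had a stigmasterol effect that differed between genotypes past the threshold. At an adjusted p of 0.05 by edgeR's quasi-likelihood test, 2 of 20254 genes passed (0.00987%), the ribosomal protein gene Rpl31 and Rps27rt, a retrogene copy of the ribosomal protein gene Rps27, and both had a positive interaction. At an unadjusted p of 0.05, 1855 genes (9.16%) passed, 1022 of them positive (5.05%) and 833 negative (4.11%). Of these 1855, 1823 had stigmasterol effects of opposite sign in the 2 genotypes, 16 had the same sign and a larger effect in KO (0.079% of all genes), and 16 the same sign and a larger effect in WT (0.079%). Over all genes tested 12366 (61.1%) had opposite signs at any size. Picking genes by the difference between 2 effects favours opposite signs by itself. The 1823 of 1855 therefore describe the picked genes and are not a separate result. DESeq2 called 125 genes, 79 positive and 46 negative, and both edgeR calls were among them. Limma-voom called 3, both edgeR calls among them.

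The count was sensitive to single animals. It was 0 without KO vehicle animal T1 or T90 and without KO stigmasterol animal T15 or T93, and 1 (Rpl31) without KO vehicle animal T110. It was 6 without WT stigmasterol animal T78 and 11 without KO stigmasterol animal T10. It was also 0 when only the 4 groups of the contrast were fitted, without the bisphenol A libraries. Of the 14 libraries, 5 reached 10 CPM of Cdh16 and are called the Cdh16 libraries below, with their 4 counterparts among the bisphenol A libraries. A fit without them leaves 1 animal in each KO group, T15 with stigmasterol and T90 with vehicle. For the interaction and the stigmasterol effects, counts of genes passing in that fit are therefore not given. Its counts for KO against WT are listed only with the other refits and cannot be compared with theirs. The 2 effects that make up the interaction had few calls of their own. In KO, 0 of 20254 genes passed for stigmasterol against vehicle by edgeR (0%), 779 passed at an unadjusted p of 0.05 (3.85%; 1.39% lower), and DESeq2 called 1. In WT, edgeR called 1 gene (0.00494%), Rpl31, which fell, 1672 passed at an unadjusted p of 0.05 (8.26%; 3.84% higher), and DESeq2 called 71, 50 of them lower. The WT call was lost without any 1 of 9 libraries, namely WT vehicle T66, T71, T79 or T81, WT stigmasterol T98, T118 or T119, KO vehicle T90 and KO stigmasterol T15.

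Rpl31, a protein of the 60S subunit, lay at 168, 180 and 183 CPM in KO stigmasterol animals and at 144, 154 and 163 CPM in KO vehicle animals. In WT it lay at 135, 125, 125 and 128 CPM in stigmasterol animals and at 166, 162, 168 and 161 CPM in vehicle animals. All KO stigmasterol animals were thus above all KO vehicle animals, and all WT stigmasterol animals below all WT vehicle animals. The interaction was 0.56 ± 0.0751 on the log2 scale (SE, edgeR adjusted p = 0.012). In WT testes Rpl31 fell by 0.36 under stigmasterol (SE 0.0493, edgeR adjusted p = 0.0174), and in KO testes its log2 fold change was 0.20 ± 0.0567 (edgeR adjusted p = 1, unadjusted p = 0.00217). KO stood above WT under stigmasterol (0.46 ± 0.0528, edgeR adjusted p = 3.42e-05), while under vehicle the difference was -0.09 ± 0.0532 (edgeR adjusted p = 0.315). With 1 library left out the interaction stayed between 0.51 and 0.61. The interaction missed the threshold when KO vehicle animal T1 (edgeR adjusted p = 0.103) or T90 (0.0523) or KO stigmasterol animal T15 (0.101) or T93 (0.0545) was left out. Without the Cdh16 libraries, with 1 animal in each KO group, the interaction was 0.60.

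Rps27rt had 130.2, 133.6 and 132.5 CPM in KO stigmasterol animals, against 108.3, 113.6 and 113.3 CPM in KO vehicle animals. In WT it had 91.8, 94.8, 96.0 and 94.3 CPM in stigmasterol animals, against 119.1, 111.9, 110.4 and 116.5 CPM in vehicle animals. The groups did not overlap in either genotype, and the vehicle animals of KO and WT overlapped. The interaction was 0.52 ± 0.0752 (SE, edgeR adjusted p = 0.0151), from a log2 fold change of 0.24 ± 0.0568 in KO (edgeR adjusted p = 0.981) and -0.28 ± 0.0493 in WT (edgeR adjusted p = 0.129). Leaving out KO vehicle animal T1, T90 or T110, or KO stigmasterol animal T15 or T93, left it short of the threshold (edgeR adjusted p = 0.0523 to 0.103). With 1 library left out the interaction stayed between 0.50 and 0.54. In the 12 refits of other kinds it ran from 0.28 to 0.54.

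The Rps27rt value cannot be read apart from that of its parent gene. Rps27rt lies on chromosome 9 (114982371 to 114982740, mm10) and Rps27 on chromosome 3 (90212725 to 90213615), and their coding sequences were identical over all 255 bases in the GENCODE M21 transcripts of the same build. The opening 60 coding bases of each are shown because any read that falls within them matches both genes, with the start codon first.
Rps27rt: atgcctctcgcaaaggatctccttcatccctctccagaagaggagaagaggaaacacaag
Rps27: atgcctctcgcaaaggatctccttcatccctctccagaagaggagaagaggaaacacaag
The sources used here do not say how reads that match several places were counted. Rps27 itself averaged 89.8 ± 2.98 CPM in KO stigmasterol (SD, n = 3), 79.7 ± 2.12 CPM in KO vehicle (n = 3), 63.5 ± 2.18 CPM in WT stigmasterol (n = 4) and 79 ± 4.82 CPM in WT vehicle animals (n = 4). Its mean was higher with stigmasterol than with vehicle in KO and lower in WT, with an interaction of 0.49 ± 0.0997 (SE, edgeR adjusted p = 0.135).

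**Figure D1:**
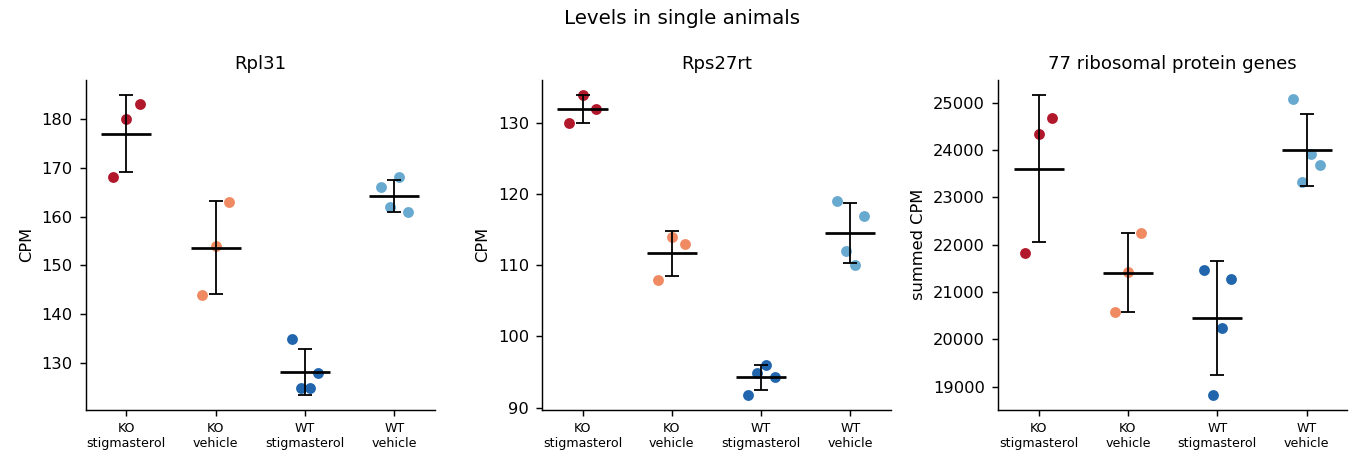
Levels of Rpl31 and Rps27rt in CPM and the summed CPM of 77 cytosolic ribosomal protein genes, 1 point per animal, with the mean (long bar) and SD (whiskers) of KO stigmasterol, KO vehicle, WT stigmasterol and WT vehicle testes; the axes do not start at 0. Rpl31 and Rps27rt are higher with stigmasterol than with vehicle in every KO animal and lower in every WT animal, and the mean summed level is also higher with stigmasterol in KO and lower in WT, with KO stigmasterol animal T10 (21821 CPM) inside the KO vehicle range and the highest mean in WT vehicle.

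The cytosolic ribosomal protein genes had interactions of one sign. All 77 such genes (by symbol, protein-coding, paralogs apart) passed the filter on low counts, and all 77 had a positive interaction, with a median of 0.39 on the log2 scale and a range of 0.24 to 0.60, beside a median of 0.00 and 10259 of 20254 positive (50.7%) over all genes tested. At an unadjusted p of 0.05, 75 of the 77 had a positive interaction, beside 5.05% of all genes. Over all genes tested 1 of the 77, Rpl31, passed by edgeR, which called 2 genes in all. DESeq2 called 45 of the 77. In all it called 125 of the 32643 genes it was fitted to, 79 of those positive, with its adjusted p taken over fewer genes. The median log2 fold change under stigmasterol was 0.14 in KO and -0.24 in WT. By edgeR none of the 77 passed for stigmasterol against vehicle in KO, and Rpl31 alone passed in WT. In WT, 73 of 77 were lower at an unadjusted p of 0.05 (4.42% of all genes), and 61 had all stigmasterol animals below all vehicle animals (1.9% of all genes were below and 1.54% above). In KO, 33 of 77 were higher at an unadjusted p of 0.05 (2.46% of all genes), and 23 had all stigmasterol animals above all vehicle animals (4.63% of all genes were above and 4.96% below). These genes share regulation and libraries, so they are not 77 independent observations, and the set was drawn up with results of these data known.

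The summed level of the 77 genes was 21821, 24339 and 24675 CPM in KO stigmasterol animals and 20574, 21418 and 22247 CPM in KO vehicle animals. It was 21460, 18829, 20244 and 21286 CPM in WT stigmasterol animals and 25086, 23322, 23917 and 23693 CPM in WT vehicle animals. The WT groups did not overlap, whereas KO stigmasterol animal T10 lay within the KO vehicle range. Read between genotypes, the median difference had opposite signs under the 2 treatments. The median KO to WT log2 difference was 0.21 under stigmasterol, where 32 of the 77 genes were higher in KO by edgeR at an adjusted p of 0.05 and none lower (of all genes, 7.21% were called, 3.87% higher and 3.34% lower). It was -0.17 under vehicle, where 4 were lower in KO and none higher (of all genes, 2.92% were called, 1.24% higher and 1.68% lower). The 2 within-treatment comparisons use different animals, but each shares its animals with the interaction. In fits with 1 library left out the median interaction of the 77 genes was 0.34 to 0.44. Without the Cdh16 libraries, with 1 animal in each KO group, it was 0.42.

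The pattern was as large in both subunits. The 31 genes of the 40S subunit had a median interaction of 0.39 (range 0.24 to 0.60) and the 46 of the 60S subunit also 0.39 (0.24 to 0.56). The lowest values were those of Rpl27 (0.24 ± 0.0967) and Rps26 (0.24 ± 0.124), and the highest those of Rps4x (0.60 ± 0.216) and Rpl31. Small p values also belonged to Rpl17 (0.48 ± 0.0856, edgeR adjusted p = 0.0761) and Rpl37a (0.49 ± 0.0903, 0.0897), neither of which passed. Rpl17, of the 60S subunit, had 235, 251 and 264 CPM in KO stigmasterol animals, against 210, 222 and 220 CPM in KO vehicle animals. WT levels were 212, 185, 204 and 216 CPM in stigmasterol animals, against 255, 234, 249 and 251 CPM in vehicle animals. The stigmasterol and vehicle groups of Rpl17 did not overlap in either genotype. Among 40S proteins, Rps15, Rps27a, Rps19 and Rps14 had interactions of 0.43 to 0.49 with edgeR adjusted p of 0.135 to 0.157, and among 60S proteins Rpl37, Rpl9 and Rpl36 had 0.41 to 0.48 (0.135 to 0.149). Rps27a also encodes ubiquitin, as a fusion with the ribosomal protein. The 7 paralogs that are set apart from the core genes, such as Rpl3l, had a median of 0.21 with 6 positive. At an unadjusted p of 0.05 there were 0 of them (9.16% of all genes). Most ribosomal protein genes have processed pseudogenes of near-identical sequence, which makes the level of each single gene uncertain.

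**Figure D2:**
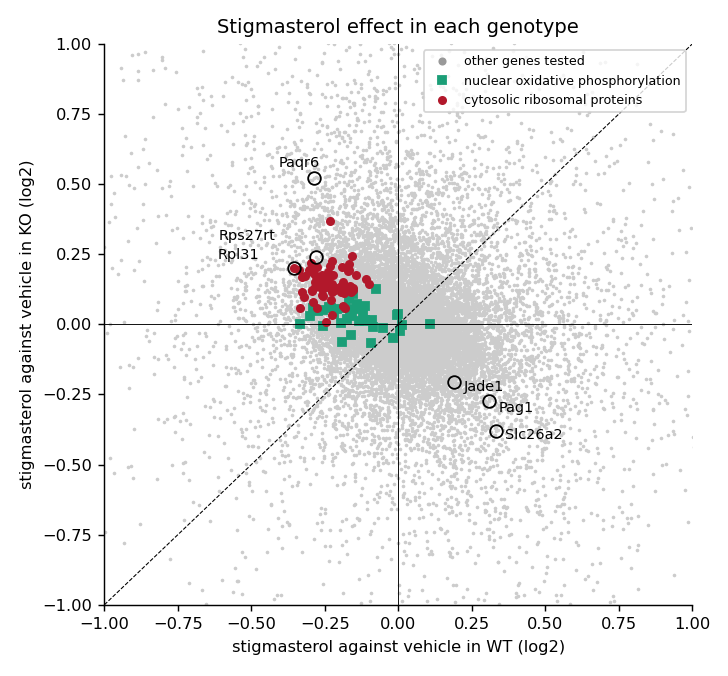
Log2 fold change of stigmasterol against vehicle in KO (vertical axis) and in WT (horizontal axis), 1 point per gene tested, with cytosolic ribosomal protein genes in red, nuclear oxidative phosphorylation genes in green, 6 named genes circled, and the dashed line at equal effects; 661 genes with an effect beyond 1 in either genotype lie outside the axes. The red points gather above 0 in KO and below 0 in WT, around medians of 0.14 and -0.24.

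The promoters of 4 ribosomal protein genes are shown because all members of the set had an interaction of the same sign. They are those with the smallest interaction p among members with a single RefSeq window that could be printed. Each runs from 120 bases before to 30 bases after the start of the gene in RefSeq (GRCm38.p6, plus strand, 5′ to 3′), and capitals mark CCGGAAG, the core of ETS-family sites, which was looked for on both strands. The windows are chr1:39367731-39367880 for Rpl31, chr1:72711140-72711289 for Rpl37a, chr10:80292311-80292460 for Rps15 and chr15:5116493-5116642 for Rpl37.
Rpl31: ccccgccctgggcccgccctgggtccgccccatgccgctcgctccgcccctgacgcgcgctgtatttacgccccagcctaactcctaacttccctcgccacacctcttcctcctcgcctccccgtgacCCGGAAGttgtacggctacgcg
Rpl37a: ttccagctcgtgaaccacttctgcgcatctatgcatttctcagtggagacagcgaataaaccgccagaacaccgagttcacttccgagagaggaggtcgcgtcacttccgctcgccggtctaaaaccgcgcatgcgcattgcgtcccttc
Rps15: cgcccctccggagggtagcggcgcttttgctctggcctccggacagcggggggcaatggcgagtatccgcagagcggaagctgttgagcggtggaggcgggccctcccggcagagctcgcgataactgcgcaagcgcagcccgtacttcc
Rpl37: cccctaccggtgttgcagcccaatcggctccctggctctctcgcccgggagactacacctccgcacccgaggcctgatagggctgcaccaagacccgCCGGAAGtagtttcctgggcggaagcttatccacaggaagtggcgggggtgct
Over windows of 250 bases before to 50 bases after the start, CCGGAAG was in 25 of 67 windows of ribosomal protein genes (37.3%; 57 of the 77 genes had a window, some more than 1) and in 2910 of 32851 windows of all genes (8.86%). A match describes these letters only and is not a binding site.

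The median interaction was also positive in 2 lists of other genes of protein synthesis, and none of their members passed over all genes tested by edgeR. DESeq2 called Snhg7, Eef1b2, Eif3k and Gnb2l1 among them, beside 125 genes in all. Host genes of small nucleolar RNAs, whose introns carry the guides of ribosomal RNA modification, were positive in 9 of 9 with a median of 0.36, and 5 had an unadjusted p under 0.05 (5.05% of all genes were positive at that p, and 50.7% at any p). Gas5, one of them, had an interaction of 0.49 ± 0.145 and Snhg7 0.64 ± 0.157. Of 26 translation factors and other TOP messages 23 were positive, with a median of 0.21 and 13 positive at an unadjusted p of 0.05 (5.05% of all genes). Rpsa is counted both here and among the 77 ribosomal protein genes. The list included Eif3k, a subunit of the initiation factor eIF3 (0.39 ± 0.0878), Gnb2l1, the 40S-bound scaffold RACK1 (0.38 ± 0.0941), and the elongation factor Eef1b2 (0.39 ± 0.103). These 2 lists were written after the data were seen.

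Nuclear genes of oxidative phosphorylation were positive in 34 of 38, with a median of 0.20, and 14 were positive at an unadjusted p of 0.05 (5.05% of all genes), none of them past the adjusted threshold by edgeR. Their median stigmasterol effect was 0.03 in KO and -0.16 in WT. Ndufa7 and Ndufa2, subunits of complex I, had interactions of 0.37 ± 0.11 and 0.33 ± 0.113, and Cox7c, of complex IV, 0.26 ± 0.0864. Cox7c had 65.6, 67 and 65.7 CPM in KO stigmasterol animals, against 62.1, 65.5 and 63.1 CPM in KO vehicle animals, and 56.6, 56.5, 57.1 and 57.8 CPM in WT stigmasterol animals, against 72.6, 64.2, 60.7 and 65.7 CPM in WT vehicle animals. Neither pair of groups overlapped for Cox7c, with the wider gap in WT. The 77 mitochondrial ribosomal protein genes were positive in 69, with a median of 0.13, and 11 were positive at an unadjusted p of 0.05 (5.05% of all genes). The 28 proteasome genes had a median of 0.07 with 21 positive. The 12 genes encoded by mitochondrial DNA, which supply the remaining subunits of the same respiratory complexes, had a median of -0.05 with 5 positive.

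**Figure D3:**
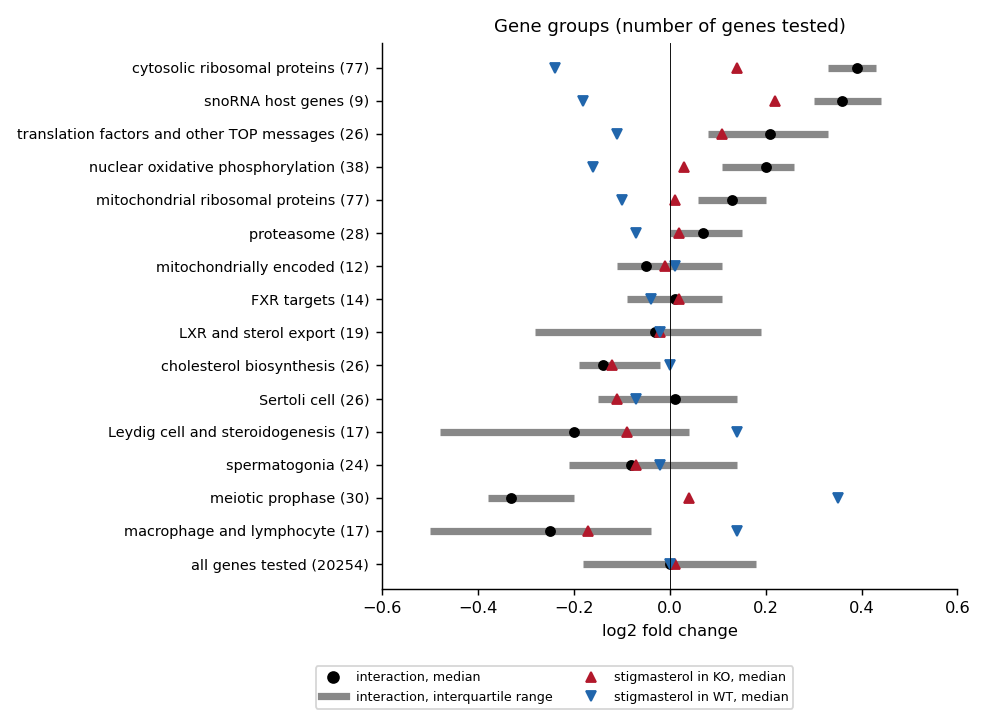
Median interaction (black dot) with the interquartile range of members (grey bar), and median stigmasterol effect in KO (red, pointing up) and in WT (blue, pointing down), in log2, for gene groups with the number of genes tested in brackets. Cytosolic ribosomal protein genes lie at 0.39, to the right of the other groups drawn, and all genes tested have a median of 0.00. Some lists are not drawn, among them those of the epididymis (median 0.58) and of liver plasma proteins (-1.31).

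The interaction also went with gene length. Among abundant genes (a mean of 100 CPM or more) outside the 77, the 910 of up to 1 kb in the authors' table had a median interaction of -0.01, and the 189 of over 6 kb had -0.21, with stigmasterol medians of -0.07 in KO and 0.14 in WT. By the longest annotated transcript, the 41 abundant genes of up to 1 kb had a median of 0.21 and the 729 of over 6 kb -0.18. Ribosomal protein genes had about the same median with a longest transcript of up to 1 kb (0.39, 33 genes) as with a longer one (0.38, 44 genes). When the trend with the authors' gene length was removed within each library, their median interaction was 0.31, and 0.24 when the trend with the longest transcript was removed. With the longest transcript's trend removed the oxidative phosphorylation list had a median of 0.02. With either length trend removed edgeR called no interaction (1618 and 1275 genes at an unadjusted p of 0.05), and Rpl31 had 0.49 (adjusted p = 0.0694) and 0.38 (0.42). Whether length sets any part of the differences was not tested further.

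**Figure D4:**
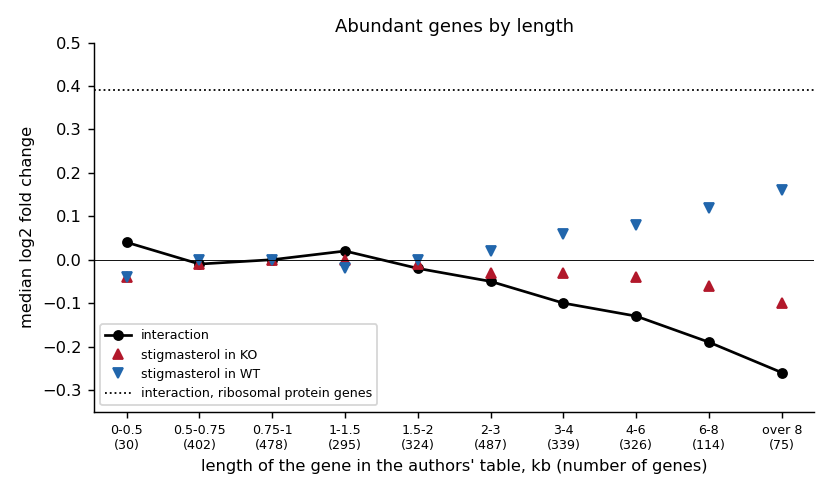
Median log2 interaction (black), stigmasterol effect in KO (red) and stigmasterol effect in WT (blue) of abundant genes outside the ribosomal protein set, by the length of the gene in the authors' table in kb, with the number of genes in brackets; the dotted line is the median interaction of the 77 ribosomal protein genes (0.39). The interaction is below 0 in each bin above 1.5 kb and reaches -0.26 in genes of over 8 kb. The KO effect is below 0 in each of these bins. The WT effect is 0.0 from 1.5 to 2 kb and above 0 in each longer bin.

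Among genes with negative interactions, none of the 7 described here passed over all genes tested by edgeR, while DESeq2 called all 7. DESeq2 was fitted to all 32643 genes deposited and called 46 negative interactions in all. Its adjusted p was taken over fewer genes than it was fitted to. The 7 were chosen by small interaction p in the same counts, so their DESeq2 calls are not separate support. Pag1, a transmembrane adaptor that recruits the Src kinase inhibitor Csk, had 31.2, 28.5 and 31.1 CPM in KO stigmasterol animals and 40.3, 33.9 and 35.4 CPM in KO vehicle animals. For WT animals the values were 34.5, 40.3, 39.8 and 36.2 CPM in stigmasterol animals and 30.6, 31, 31.8 and 28.2 CPM in vehicle animals. The groups were apart in both genotypes and in opposite directions, with an interaction of -0.58 ± 0.102 (SE, edgeR adjusted p = 0.0761). In 1 of the 14 fits with 1 library left out, that without WT stigmasterol animal T78, Pag1 and Jade1 were called (edgeR adjusted p = 0.0359 and 0.0495).

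Jade1, a scaffold of the HBO1 histone acetyltransferase complex, had 126, 122 and 120 CPM in KO stigmasterol animals and 150, 142 and 133 CPM in KO vehicle animals. In WT it had 136, 163, 157 and 147 CPM in stigmasterol animals and 130, 132, 132 and 135 CPM in vehicle animals. Its interaction was -0.40 ± 0.0815 (SE, edgeR adjusted p = 0.135), and again the groups were apart both ways. The sulfate transporter gene Slc26a2 (-0.71 ± 0.147, edgeR adjusted p = 0.136), the metalloprotease gene Adam9 (-0.48 ± 0.102, 0.149) and the Werner helicase gene Wrn (-0.43 ± 0.0924, 0.15) showed the same non-overlapping arrangement. Gnptab, which starts the mannose 6-phosphate tag of lysosomal enzymes (-0.52 ± 0.111, edgeR adjusted p = 0.149), and Neb, encoding the muscle protein nebulin (-0.79 ± 0.172, 0.157), were apart in KO alone.

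**Figure D5:**
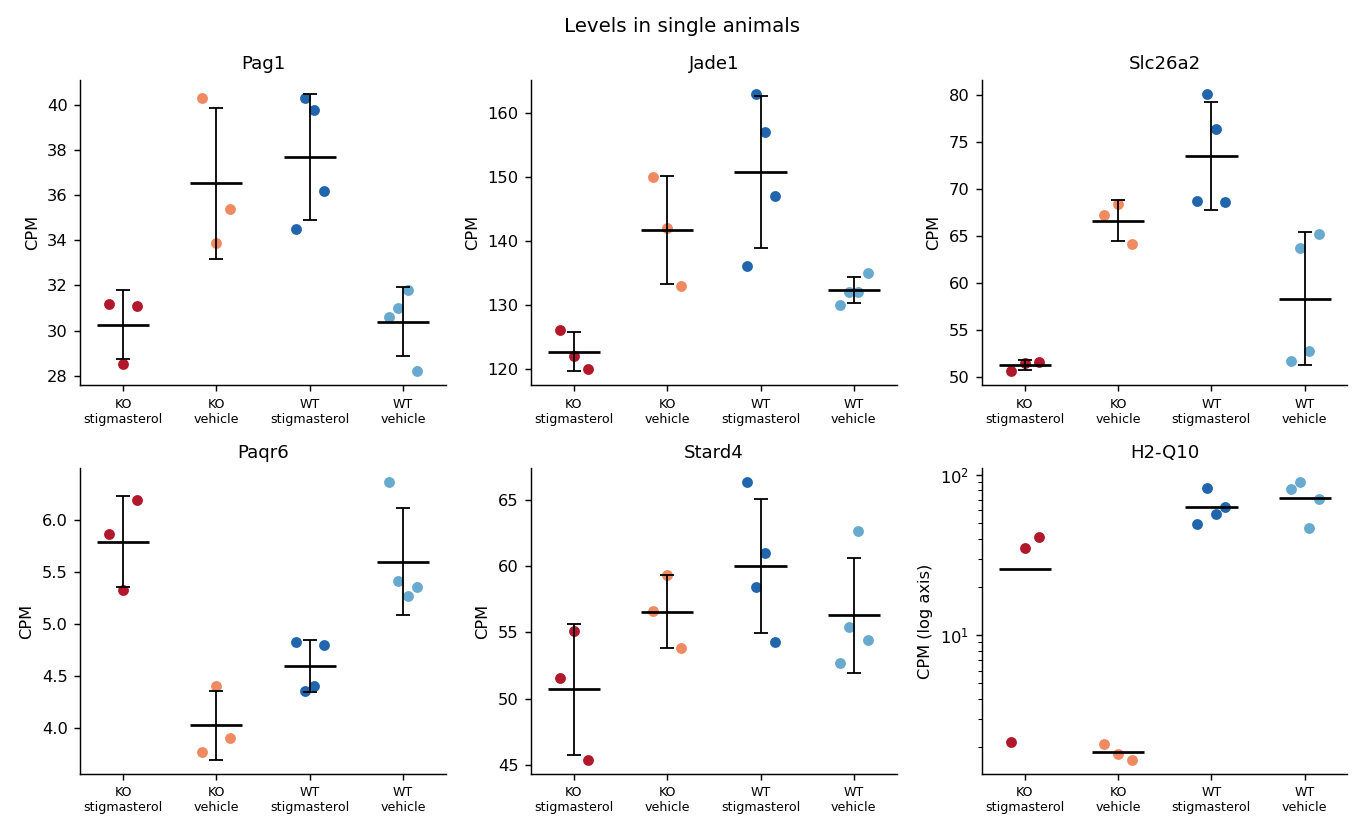
Levels in CPM of Pag1, Jade1, Slc26a2, Paqr6, Stard4 and H2-Q10, 1 point per animal, with the mean (long bar) and, except for H2-Q10 on its log axis, the SD (whiskers) of KO stigmasterol, KO vehicle, WT stigmasterol and WT vehicle testes; the linear axes do not start at 0. Pag1, Jade1 and Slc26a2 are lower with stigmasterol in KO and higher in WT, Paqr6 the reverse, Stard4 overlaps between treatments in both genotypes, and H2-Q10 is split within the KO stigmasterol group between 2.16 CPM and 34.7 to 40.8 CPM.

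Outside the ribosomal set, genes with positive interactions included Paqr6, a membrane progesterone receptor gene. It had 5.86, 5.32 and 6.19 CPM in KO stigmasterol animals, against 3.77, 4.4 and 3.9 CPM in KO vehicle animals. Among WT animals it had 4.82, 4.35, 4.4 and 4.8 CPM in stigmasterol animals, against 6.36, 5.41, 5.27 and 5.35 CPM in vehicle animals. Its groups did not overlap, and its interaction was 0.81 ± 0.155 (SE, edgeR adjusted p = 0.116). Chrnb1, the β subunit of the muscle acetylcholine receptor, had an interaction of 0.85 ± 0.179 (edgeR adjusted p = 0.149), with KO groups apart and WT groups overlapping. Lag3, an inhibitory receptor of T cells, had 0.64 ± 0.189 (edgeR adjusted p = 0.306) and levels of 2.76 to 5.56 CPM.

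H2-Q10, a class I MHC gene known for its secreted product from liver, had the largest interaction among the genes named by p, 4.00 ± 0.763 on the log2 scale (SE, edgeR adjusted p = 0.116). It had 2.16, 34.7 and 40.8 CPM in KO stigmasterol animals and 2.09, 1.81 and 1.67 CPM in KO vehicle animals. In WT it had 49.6, 82.4, 56.8 and 62.9 CPM in stigmasterol animals and 81.9, 89.6, 46.3 and 70.3 CPM in vehicle animals. The KO stigmasterol group was thus divided, with T10 at the level of KO vehicle and T15 and T93 near the lower end of WT. Without T10 the interaction was 4.55 (edgeR adjusted p = 8.31e-07), without T15 3.76 (0.24) and without T93 3.50 (0.386). KO and WT differed under vehicle (-5.27 ± 0.644, edgeR adjusted p = 7.71e-05). Class I genes are polymorphic between mouse strains and have close relatives, and reads cannot be assigned to 1 of them with certainty.

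Over all genes, 46 of 20254 genes (0.227%) had KO stigmasterol animals all above KO vehicle and WT stigmasterol animals all below WT vehicle, and 19 of the 46 were among the 77 ribosomal protein genes. In the reverse arrangement there were 47 genes (0.232%), among them the non-coding RNA gene Gdap10 (-0.98 ± 0.23, edgeR adjusted p = 0.186) and the mitochondrial leucine tRNA gene mt-Tl2 (-1.99 ± 0.471, 0.186). Sost, encoding the Wnt inhibitor sclerostin, was also in that set with -4.73 ± 2.26 (edgeR adjusted p = 0.548). Its value rested on KO vehicle animals T1 (5.12 CPM) and T110 (1.9 CPM), and it was at 0.0219 to 0.206 CPM in the other 12. Stigmasterol above vehicle in both genotypes was seen in 6 genes (0.0296%) and below in both in 1 (0.00494%).

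None of the 14 tested genes on the list of FXR targets passed the test of the interaction, by edgeR or by DESeq2. Of these 14, Nr1h4 itself included, 7 were positive and the median was 0.01. By edgeR 0 passed at an adjusted p of 0.05 (0.00987% of all genes) or at an unadjusted p of 0.05 (9.16%). At those shares a list of 14 genes would hold few, so the 0 says little about the list. Nr0b2, which encodes the repressor SHP, had 1.41, 1.72 and 1.59 CPM in KO stigmasterol animals, against 1.18, 1.27 and 1.8 CPM in KO vehicle animals. In wild-type testes it had 2.29, 1.3, 1.09 and 2 CPM in stigmasterol animals, against 1.89, 1.63, 2.57 and 3.59 CPM in vehicle animals. The groups overlapped in both genotypes (interaction 0.69 ± 0.407, edgeR adjusted p = 0.645). The heparan sulfate proteoglycan gene Sdc1, an FXR target in liver, had an interaction of -0.09 ± 0.139 (edgeR adjusted p = 0.896). The bile acid exporter genes Slc51a (0.07 ± 0.615) and Slc51b (0.12 ± 0.418) were at 0.122 to 1.14 CPM, where the error is wide. Apoc2, an activator of lipoprotein lipase, was at 0.0441 CPM or less in KO animals, under the floor of detection, so its interaction cannot be measured.

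Sterol genes had interactions of both signs, and none of those described here passed over all genes tested by edgeR. The plant sterol transporter gene Abcg5 had 0.409, 0.155 and 0.992 CPM in KO stigmasterol animals and 0.241, 0.226 and 0.203 CPM in KO vehicle animals. WT testes had 0.203, 0.0649, 0.0909 and 0.147 CPM in stigmasterol animals and 0.197, 0.15, 0.134 and 0.399 CPM in vehicle animals. These levels correspond to 3 to 58 reads, the 2 highest values came from Cdh16 libraries, and the interaction of 2.01 ± 0.937 (edgeR adjusted p = 0.542) turned to -0.18 without those libraries. Its partner Abcg8 had 0.32 ± 1.28 (edgeR adjusted p = 0.969), with 0 to 28 reads. The cholesterol efflux pump gene Abca1 had an interaction of -0.39 ± 0.182 (edgeR adjusted p = 0.542) and Soat1, which esterifies cholesterol, -0.66 ± 0.294 (0.523). Over 19 genes of LXR response and sterol export 9 were positive, and the median was -0.03.

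Enzymes and carriers of cholesterol synthesis, whose genes SREBP2 activates when sterol is low, were positive in 6 of 26 with a median of -0.14. None passed over all genes tested by edgeR or DESeq2, and 3 were negative at an unadjusted p of 0.05 (4.11% of all genes). One of them was Stard4, which encodes a sterol carrier, with 51.6, 55.1 and 45.4 CPM in KO stigmasterol animals and 56.6, 59.3 and 53.8 CPM in KO vehicle animals. In WT it had 66.3, 58.4, 61 and 54.3 CPM in stigmasterol animals and 52.7, 55.4, 62.6 and 54.4 CPM in vehicle animals. The groups of Stard4 overlapped in both genotypes, and its interaction was -0.25 ± 0.11 (SE, edgeR adjusted p = 0.523). Between genotypes, 7 of the 26 were lower in KO under stigmasterol (3.34% of all genes) and 2 under vehicle (1.68%) by edgeR at an adjusted p of 0.05, and 0 were higher in KO under either. Without KO stigmasterol animal T93 the list's median interaction was -0.05.

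Markers of cell types differed between animals within each group, and their lists had no gene called in the interaction by edgeR or DESeq2. In bulk tissue fewer cells of a type and less RNA per cell cannot be told apart. Genes of meiotic prophase were positive in 4 of 30 with a median of -0.33 (0.04 in KO and 0.35 in WT). An unadjusted p under 0.05 was found for 0 of these genes (9.16% of all genes). Their mean log2 level relative to the 14 libraries was 0.78, 0.33 and -0.27 in KO stigmasterol animals, 0.76, 0.22 and -0.11 in KO vehicle animals, -0.97, 0.88, 0.34 and -0.65 in WT stigmasterol animals, and 0.43, 0.05, -0.59 and -1.19 in WT vehicle animals. Each group thus held animals with high and low meiotic signal, and the median turned to 0.15 without WT stigmasterol animal T98 and to 0.01 without KO vehicle animal T1. With this score as a covariate the ribosomal protein median was 0.38, and edgeR called 25 genes in the interaction, 13 of them among the 77.

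Epididymis and efferent duct markers were positive in 21 of 27 with a median of 0.58. The median was 0.14 without WT vehicle animal T81, 0.17 without KO stigmasterol animal T93 and 1.18 without KO vehicle animal T1. Without the Cdh16 libraries, with 1 animal in each KO group, it was 0.07. Cdh16 is itself on this list and chose the libraries left out, so the 0.07 is not a separate result. The summed level of the list was 400 to 1393 CPM in KO stigmasterol and 398 to 866 CPM in KO vehicle animals. In WT it was 330 to 389 CPM in stigmasterol and 346 to 477 CPM in vehicle animals. Wfdc2, an epididymal protease inhibitor, had 10.3, 4.37 and 21.9 CPM in KO stigmasterol animals and 7.07, 2.98 and 5.4 CPM in KO vehicle animals, and 1.66 to 4.69 CPM in WT animals (interaction 1.78 ± 0.646, edgeR adjusted p = 0.434). The tight junction gene Cldn4 (2.56 ± 1.24) and Lcn2, a siderophore-binding lipocalin (3.76 ± 1.92), had the same uneven spread. With the epididymis score as a covariate the ribosomal protein median was 0.39 and edgeR called 3 genes in the interaction.

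Macrophage and lymphocyte genes were positive in 3 of 17 with a median of -0.25, and Cd68, the mannose receptor gene Mrc1 and Ptprc, encoding CD45, were negative at an unadjusted p of 0.05 (4.11% of all genes). Their summed level was 136 ± 20.8 CPM in KO stigmasterol (SD, n = 3), 163 ± 16 CPM in KO vehicle (n = 3), 168 ± 12.6 CPM in WT stigmasterol (n = 4) and 160 ± 26 CPM in WT vehicle animals (n = 4). Leydig cell genes were positive in 5 of 17 (median -0.20), Sertoli cell genes in 15 of 26 (0.01) and spermatogonial genes in 8 of 24 (-0.08). Hsd17b3, which makes testosterone, had an interaction of 1.5 ± 0.67 (edgeR adjusted p = 0.524), with 22.6 to 130 CPM among WT vehicle animals alone. The part of any of these cell types in the ribosomal protein result was not tested beyond the fits with the meiotic and epididymal scores.

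The authors' deposited table holds its own tests of stigmasterol against vehicle within each genotype, with no interaction. For Rpl31 the authors' deposited table gives a log2 fold change of 0.2 in KO (adjusted p 0.55) and -0.35 in WT (adjusted p listed as 0 at 2 decimals). Of the 45 genes named by the rule used here, the authors' deposited table gives an adjusted p under 0.05 for 6 in WT, 5 of them ribosomal protein genes and the other Rps27rt, and for 0 in KO, where the lowest is 0.08 (Paqr6). Rpl37a and Rps15 are listed at 0.05 in WT after rounding and are not among the 6. Most of the 45 were chosen by their values in the same animals, so these counts are not separate support. No share over all genes is given beside them.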

How the data were processed

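Testis RNA of 21 mice had been sequenced; the labels name a TruSeq RNA kit, which selects poly-A RNA without marking strand, so sense and antisense reads cannot be told apart. The authors deposited raw counts per gene, a normalized signal (each count divided by 1 factor per library), that signal per kb of gene length, and log2 fold changes with p-values and adjusted p-values of their own comparisons, these last rounded to 2 decimals. TopHat2 2.0.10, Bowtie2 2.1.0, Bowtie, CASAVA 1.8.2 and the mm10 build are listed, without their roles, per the submitters' processing notes. The sources used here do not give the read counter or its treatment of multiply matching reads.

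EdgeR 4.0.16 (R 4.3.3) was run on the deposited counts (TMM, filterByExpr with a minimum count of 10 and a minimum total of 15, 20254 of 32643 genes kept, quasi-likelihood model with 6 group means over 21 libraries). Adjusted p is Benjamini-Hochberg over all genes tested within a contrast, two-sided, with a threshold of 0.05, and is from edgeR unless another tool is named. The SE of a log2 fold change is its size over the root of F. Levels are CPM after TMM. The script was tested on simulated counts. Each animal is a replicate, and p-values measure the spread between animals, with litters unknown.

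The genes, lists and sets were chosen with earlier results of these data known. Named genes were the calls, filled up to 24 by the smallest interaction p (conventional symbol, mean of 1 CPM or more in a group), the 3 smallest p of the FXR target, sterol export, cholesterol and epididymis lists, 10 FXR and sterol genes, and up to 6 genes with the largest interaction whose groups do not overlap in either genotype and move in opposite directions; other list members are given as examples by p and were chosen after their values were seen. Some genes that the rule names are not reported here. Alternatives were other scalings, filters and tools (DESeq2 1.42.0, limma-voom 3.58.1), a fit of the 4 groups alone, and each library left out. Added after seeing the data were fits without libraries with Cdh16 at 10 CPM or more, with a gene length or transcript length trend removed, and with a meiotic or epididymal score as covariate. Gene length is the ratio of the 2 deposited signals, transcript length is from GENCODE M21, gene positions are from the deposited table and promoters from RefSeq.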

Additional observations from a re-analysis of the deposited data

Results flagged for a closer look

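Rpl31 (interaction 0.56) and Rps27rt (0.52) stand out because a test of the difference itself separated the stigmasterol effect in KO from that in WT. Both values are log2 and passed edgeR's adjusted p of 0.05, and both calls were lost in several fits with 1 library left out.

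Of 82 groups of 4 animals examined for a single animal far from the others, 5 had one, beside about 1 in 20 expected by chance. WT vehicle animal T66 was far above its group for Paqr6 (6.36 CPM) and for Lag3 (4.85 CPM), and WT vehicle animal T81 for Lcn2 (6.71 CPM). WT stigmasterol animal T98 was far below its group for Nr1h4 (0.303 CPM) and T118 far below for Lag3 (2.76 CPM).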

How the results depend on the processing

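The count of 2 interaction calls was 0 with no filter (2131 genes at an unadjusted p of 0.05) and with only the 4 groups (1439). It was also 0 with the gene length (1618) or transcript length (1275) trend removed. It was 125 with DESeq2 and 25 with the meiotic score. Leaving out 1 library gave 0 to 11. Stigmasterol against vehicle in KO had 1 call with DESeq2, 3 with the meiotic score, and 0 to 1 with 1 library left out. In WT it had 71 with DESeq2. It had 0 with no filter, with only the 4 groups and with either length trend removed, and 0 to 1 with 1 library left out. KO against WT under stigmasterol (1461) had 909 with only the 4 groups, 85 without the Cdh16 libraries, 2921 with the meiotic score, 725 with the epididymal score and 637 to 1773 with 1 library left out. It was 637 without KO stigmasterol animal T93, 864 without T10, 765 without WT stigmasterol animal T119 and 856 without T118. Under vehicle (592) it had 1397 with DESeq2, 319 with only the 4 groups, 56 without the Cdh16 libraries and 242 to 986 with 1 library left out. It was 242, 307 and 299 without KO vehicle animals T1, T90 and T110, 986 without WT vehicle animal T79 and 269 without T81. The ribosomal protein median of 0.39 was 0.31 and 0.24 with the length trends removed and 0.34 to 0.44 with 1 library left out. The cause of these shifts was not tested. For KO against WT, the fit without the Cdh16 libraries left 1 animal in each KO group. Its lower counts therefore cannot separate the loss of those libraries' epididymal signal from the loss of KO animals.

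The meiotic prophase median of -0.33 turned to 0.05 without the Cdh16 libraries and to 0.04 with its own score as covariate, and ran from -0.63 to 0.15 with 1 library left out. Signs also turned for Abcg5 (-0.18 without the Cdh16 libraries), Slc51b and Apoc2 (-0.08 and -0.04 with the transcript length trend removed) and Abcg8 (-0.57 with limma-voom, -1.1 without the Cdh16 libraries, -0.23 with the meiotic score). With 1 library left out Slc51a ran from -0.24 to 0.52, Slc51b from -0.09 to 0.29, Apoc2 from -0.69 to 1.04 and Abcg8 from -1.01 to 0.8. Over the 45 named genes, 1064 of 1153 refits kept direction and side of the threshold, most of them for genes that were not called. Of the 2 called genes, Rpl31 lost its call in 4 of 14 refits with 1 library left out and 5 of 12 others, and Rps27rt in 5 of 14 and 5 of 12. No paired analysis was possible because the numbers in the labels are animal numbers and no number is shared between groups. Depth limits the genes under about 1 CPM, whose standard errors were wide (Abcg5 2.01 ± 0.937, Abcg8 0.32 ± 1.28).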
